A study of Mus musculus with 4 samples.

Results

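This account covers 40 genes whose products build ribosomes: factors for the transcription of ribosomal RNA, for its chemical modification by small nucleolar ribonucleoproteins (snoRNPs), and for the assembly of the small and large subunits. They were chosen by symbol, and all 40 were found among the 23390 gene models of the deposited count table. Earlier results of these data were known when these genes and the lists below were chosen, so their comparison with all genes is descriptive. The cultures were wild-type C57BL/6J mouse bone marrow cells, grown for 3 days with L929 supernatant as a source of M-CSF, the macrophage growth factor, and then driven towards osteoclasts, the cells that resorb bone, with 40 ng/ml of the cytokine RANKL. The treated group received 10 µM BMS-582949, an inhibitor of the kinase p38α, and has 2 libraries. The comparison group received the solvent DMSO and also has 2 libraries. RNA was collected at day 4 in both groups. The labels are not uniform on exposure: the compound was present for 3 days by the series text and for 4 days by the treatment protocol, and that protocol names the compound for every sample, so groups follow the treatment label. Whether libraries sharing a treatment derive from different mice or dishes is not stated. The p-values below thus reflect only how far these particular libraries scatter, which may be technical. In the test the scatter of each gene was also moderated by that of the other genes tested.

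Ribosome production starts in the nucleolus, where RNA polymerase I copies the ribosomal RNA genes into a long precursor. Box C/D snoRNPs add methyl groups to the precursor, box H/ACA snoRNPs turn selected uridines into pseudouridines, and large sets of assembly factors fold, cut and pack it with ribosomal proteins into the separate subunits. The genes for these factors are broadly expressed, tend to be high in growing and dividing cells, and are well known targets of the transcription factor Myc.

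Total counts per library ran from 35331889 to 39255925. A gene is said to rise or fall where its adjusted p was under 0.05 in edgeR's quasi-likelihood test over all genes. By that rule 30.5% of all 13214 genes tested rose and 29.7% fell, against which the marker counts below are to be read. Of 10 osteoclast marker genes all 10 fell with BMS-582949, and their summed level was 12155.5 and 12315 CPM (counts scaled to a common library size) with BMS-582949, against 99133 and 103354 CPM with DMSO. All 10 genes of dividing cells rose, with summed levels of 1812 and 1821 CPM with BMS-582949 and 607 and 605 CPM with DMSO. Of 10 macrophage markers 6 rose and 2 fell, with summed levels of 11143 and 11919 CPM with BMS-582949 and 10574 and 10793 CPM with DMSO. Much of each sum was Lyz2, which rose, at 8219 and 8811 CPM with BMS-582949 and 4838 and 4813 CPM with DMSO. The 2 that fell were Cd68 and Csf1r. Cd68 was at 1260 and 1455 CPM with BMS-582949 and 3442 and 3486 CPM with DMSO. Csf1r was at 875 and 891 CPM with BMS-582949 and 1886 and 2069 CPM with DMSO. Summed stromal markers were at 502 and 499 CPM with BMS-582949 and at 766 and 704 CPM with DMSO, with 5 of 7 tested genes lower and 1 higher. Neutrophil markers summed to 12.1 and 15.5 CPM with BMS-582949 and to 19.5 and 18.8 CPM with DMSO (2 of 6 tested lower, Ly6g at 0 in every library), and dendritic cell markers to 16.9 and 16.8 CPM with BMS-582949 and 27.6 and 33.8 CPM with DMSO (1 of 2 tested lower). B cell, erythroid, mast cell and T or NK cell markers summed to at most 4.64 CPM in any library, and Cd3e, Cd3g, Cd8a, Mcpt4 and Tpsb2 were at 0 in all of them. In whole cultures, fewer cells of a type and less RNA per cell cannot be told apart, and the part that cell division or a changed share of osteoclasts has in the results below was not tested.

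Most ribosome biogenesis genes were higher in cultures treated with the inhibitor. Of the 40 genes, 32 rose with BMS-582949, 1 fell and 7 were not called, where a call is an adjusted p under 0.05 in edgeR's quasi-likelihood test over all genes. In that test 30.5% of all 13214 genes tested were called higher and 29.7% lower, 60.2% in either direction. The only member that fell was Nop10, and those not called were Polr1c, Rrn3, Rrp9, Rrp12, Pes1, Noc3l and Nip7. The median log2 fold change (BMS-582949 minus DMSO) was 0.66 over the members, against 0.03 over all genes tested. A rise of at least 2-fold (a log2 fold change of 1 or more) was called for 6 members, Dkc1, Rrp1b, Tcof1, Nop58, Utp20 and Nop56, where 9.94% of all genes tested passed that rule.

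The summed level of the 40 genes was 3767 and 3573 CPM in the BMS-582949 libraries, against 2388 and 2429 CPM in the DMSO libraries. Both treated libraries lay above both DMSO libraries for 36 members and below them for 1, where 41.4% of all genes tested lay above and 38.7% below, 80.2% in either direction. The libraries of the groups overlapped for Rrn3, Rrp12 and Pes1. These levels are CPM scaled by the trimmed mean of M values (TMM), and they do not account for gene length. Every one of the 33 calls held with the same direction in all 13 alternative fits, which included 4 that each left out 1 library.

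**Figure D1:**
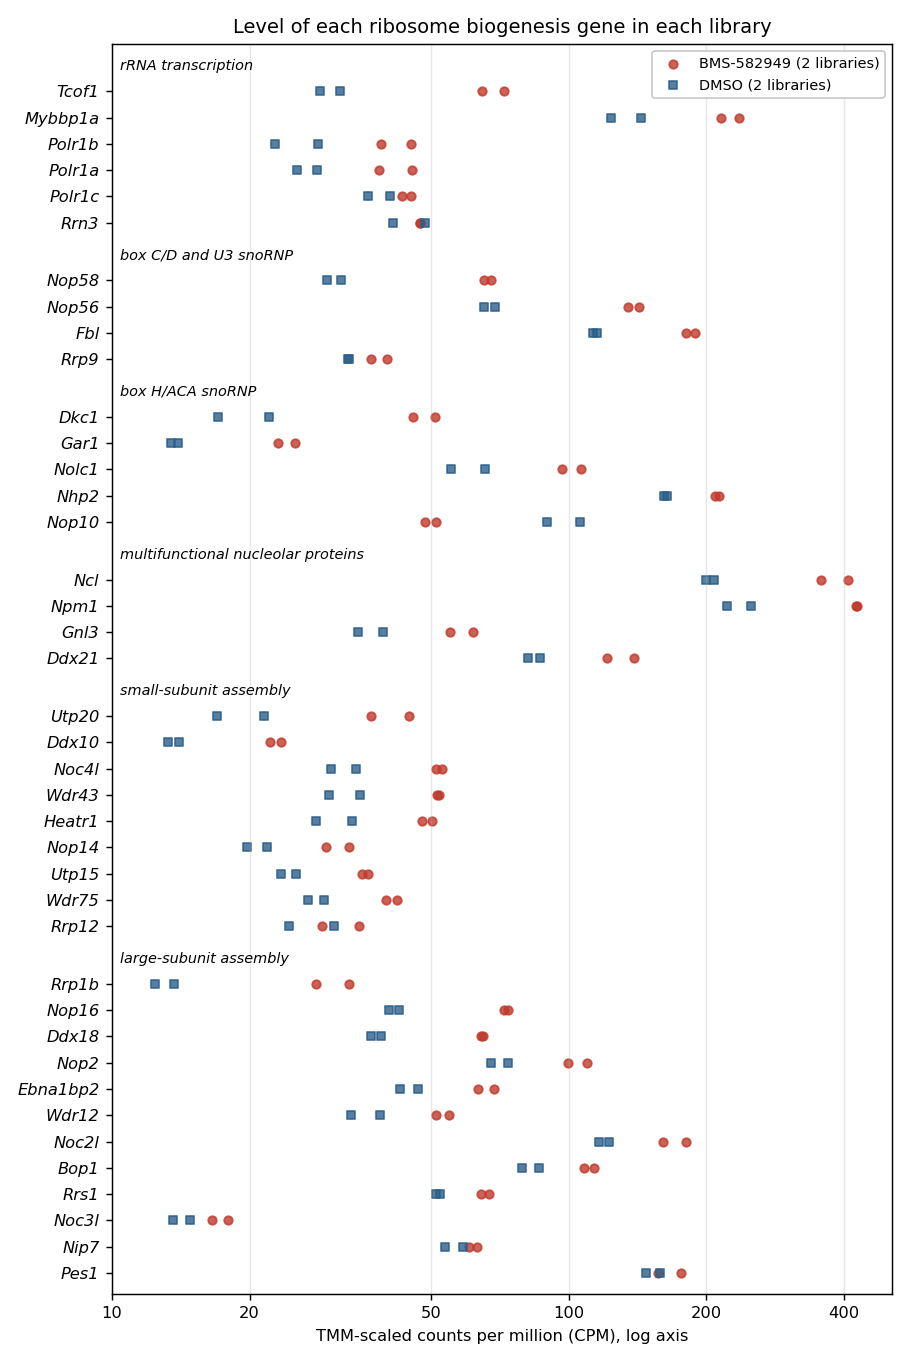
TMM-scaled CPM (log axis) of each of the 40 genes, grouped by role, with a red circle for each BMS-582949 library and a blue square for each DMSO library. The red circles lie to the right of the blue squares for 36 genes and to the left for Nop10.

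Among the 6 genes of ribosomal RNA transcription, 4 rose and 2 were not called. Tcof1 encodes treacle, a nucleolar phosphoprotein needed for the transcription of ribosomal RNA genes and mutated in human Treacher Collins syndrome. It was at 72.2 and 64.6 CPM with BMS-582949, against 28.6 and 31.5 CPM with DMSO. The groups were well apart, with a log2 fold change of 1.19 ± 0.09 (SE, edgeR adjusted p = 1.7e-07). Tcof1 (ENSMUSG00000024613) lies on the minus strand of chromosome 18 at 60813755 to 60848971 (GRCm38, GENCODE M21).

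Polr1a and Polr1b encode the catalytic core subunits of RNA polymerase I. Polr1a was at 45.4 and 38.4 CPM with BMS-582949 and at 25.4 and 28.1 CPM with DMSO, and Polr1b was at 38.8 and 45.1 CPM with BMS-582949 and at 22.7 and 28.2 CPM with DMSO. Both rose, by 0.65 ± 0.11 and 0.72 ± 0.12 on the log2 scale (SE). Polr1c, whose product is shared with RNA polymerase III, was at 45.1 and 43.1 CPM with BMS-582949 and at 36.3 and 40.6 CPM with DMSO. Its difference of 0.20 ± 0.09 was not called (edgeR adjusted p = 0.081). Rrn3 encodes the initiation factor that brings the polymerase to its promoter. Its levels of 47.2 and 47.3 CPM with BMS-582949 lay between the 41.2 and 48.6 CPM of the DMSO libraries, and its log2 fold change of 0.07 ± 0.09 was the smallest in size of all members. That value was -0.040 after removal of the GC and length trends, and -0.038 without DMSO replicate 1. Mybbp1a, which encodes a nucleolar protein that binds Myb and takes part in ribosomal RNA synthesis and processing, averaged 226 ± 14.0 CPM with BMS-582949 and 134 ± 14.1 CPM with DMSO (SD, n = 2 each), and it rose by 0.76.

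Fbl, Nop56 and Nop58, which encode core proteins of the box C/D snoRNP, all rose. Fbl encodes fibrillarin, the methyltransferase of this particle. It was at 180 and 189 CPM with BMS-582949 and at 115 and 113 CPM with DMSO, a log2 fold change of 0.70 ± 0.06 (SE, edgeR adjusted p = 8.3e-07). Nop56 was at 142 and 135 CPM with BMS-582949 and at 65.2 and 69.0 CPM with DMSO. Nop58, the partner with which Nop56 forms the scaffold of the particle, was at 67.5 and 65.3 CPM with BMS-582949 and at 31.7 and 29.6 CPM with DMSO. These changes of 1.05 ± 0.07 and 1.12 ± 0.08 left the log2 ratio of Nop58 to Nop56 overlapping between the groups, at -1.08 and -1.05 with BMS-582949 and -1.04 and -1.22 with DMSO. Ratios within a library do not depend on how libraries are scaled. The log2 ratio of Nop56 to Fbl was -0.34 and -0.48 with BMS-582949 and -0.82 and -0.71 with DMSO, so Nop56 was higher relative to Fbl in both treated libraries. With 2 libraries a group, an exact permutation test of such a ratio cannot give a p under 0.333, so no test is given for ratios. Rrp9, a protein of the U3 snoRNP that guides early cuts of the precursor, was at 39.9 and 36.9 CPM with BMS-582949 and at 32.9 and 32.9 CPM with DMSO, and was not called (log2 fold change 0.22 ± 0.10, SE, edgeR adjusted p = 0.062). It was called without BMS-582949 replicate 2 (0.26, edgeR adjusted p = 0.049) and in 5 of the 13 alternative fits in all.

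Genes of the box H/ACA snoRNP moved in both directions. This particle is built on the pseudouridine synthase dyskerin, encoded by Dkc1, with Nhp2, Nop10 and Gar1 as the other core proteins, and the same proteins are part of telomerase. Dkc1 was at 50.8 and 45.5 CPM with BMS-582949 and at 22.1 and 17.1 CPM with DMSO. Its rise of 1.3 ± 0.13 (SE, edgeR adjusted p = 2.3e-06) was the largest among the 40 members. Gar1 was at 25.1 and 23.1 CPM with BMS-582949, against 14.0 and 13.4 CPM with DMSO, and rose by 0.81 ± 0.11. Nhp2 was at 209 and 213 CPM with BMS-582949 and at 164 and 162 CPM with DMSO, a smaller rise of 0.37 ± 0.06. Nolc1 encodes Nopp140, a chaperone of snoRNPs, and rose by 0.75, to 101 ± 6.74 CPM with BMS-582949 against 60.4 ± 7.33 CPM with DMSO (SD, n = 2 each).

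Nop10 was at 51.2 and 48.4 CPM with BMS-582949 and at 106 and 89.6 CPM with DMSO. Both treated libraries lay far below both DMSO libraries, and the log2 fold change was -0.97 ± 0.08 (SE, edgeR adjusted p = 7.0e-07). It lay between -1.09 and -0.85 when 1 library was left out, and was -0.77 with the trend on GC content and length removed and -0.59 with libraries scaled by size only. The log2 ratio of Nop10 to Dkc1 was 0.01 and 0.09 with BMS-582949, against 2.26 and 2.39 with DMSO. For Nhp2 to Dkc1 it was 2.04 and 2.23 with BMS-582949 and 2.89 and 3.24 with DMSO, and for Gar1 to Dkc1 -1.02 and -0.98 with BMS-582949 and -0.66 and -0.34 with DMSO. Dkc1 was thus higher relative to each of its partners in both treated libraries, most of all relative to Nop10. Nop10 (ENSMUSG00000027133) lies on the plus strand of chromosome 2 at 112261926 to 112263269 and Dkc1 (ENSMUSG00000031403) on the plus strand of chromosome X at 75095854 to 75109777 (GRCm38, GENCODE M21).

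**Figure D2:**
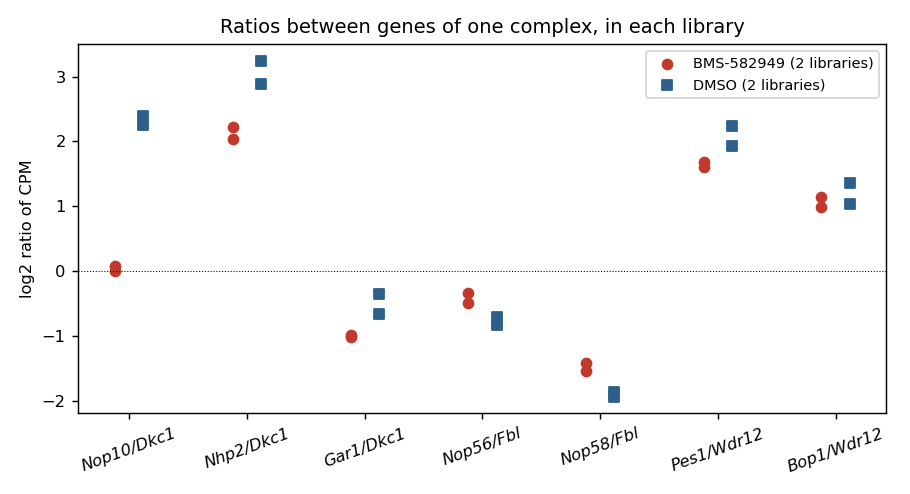
Log2 ratio of CPM between genes of one complex in each library, with red circles for BMS-582949 and blue squares for DMSO, 2 libraries each. The ratio of Nop10 to Dkc1 was near 0 in both treated libraries and above 2 in both DMSO libraries, while the ratio of Bop1 to Wdr12 overlapped between the groups.

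The promoters of these H/ACA genes are shown because the genes share a particle and yet differ in direction, with Nop2, a large-subunit gene that rose, as an example that carries both motifs named below. Each line gives the 250 bases before the RefSeq start on GRCm38.p6, 5′ to 3′ on the gene's own strand. Capitals mark CACGTG, the E-box that Myc and its partner Max bind, and CGGAAG or its reverse complement, the core of sites bound by ETS factors. These motifs do not overlap each other in the printed sequences.
Dkc1, chrX:75095604-75095853, plus strand: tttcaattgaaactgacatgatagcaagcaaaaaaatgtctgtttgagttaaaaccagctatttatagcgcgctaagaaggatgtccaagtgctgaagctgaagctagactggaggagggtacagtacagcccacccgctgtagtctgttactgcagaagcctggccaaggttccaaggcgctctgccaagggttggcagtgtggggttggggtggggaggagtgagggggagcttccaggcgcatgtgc
Nhp2, chr11:51619523-51619772, plus strand: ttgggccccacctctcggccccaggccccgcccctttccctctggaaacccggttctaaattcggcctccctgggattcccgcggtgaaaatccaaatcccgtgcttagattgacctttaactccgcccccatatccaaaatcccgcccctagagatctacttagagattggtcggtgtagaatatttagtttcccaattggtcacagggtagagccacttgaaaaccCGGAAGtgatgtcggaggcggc
Gar1, chr3:129831397-129831646, minus strand: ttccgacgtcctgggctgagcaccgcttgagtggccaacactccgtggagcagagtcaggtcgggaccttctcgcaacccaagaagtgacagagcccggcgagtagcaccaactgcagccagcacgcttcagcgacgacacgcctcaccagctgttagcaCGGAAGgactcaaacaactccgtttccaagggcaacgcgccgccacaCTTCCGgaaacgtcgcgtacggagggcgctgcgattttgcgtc
Nop10, chr2:112261676-112261925, plus strand: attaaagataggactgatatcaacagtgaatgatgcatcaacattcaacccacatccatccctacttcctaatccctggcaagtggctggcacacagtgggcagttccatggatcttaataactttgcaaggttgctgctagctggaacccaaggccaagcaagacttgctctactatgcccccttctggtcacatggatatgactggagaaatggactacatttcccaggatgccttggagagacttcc
Nop2, chr6:125131633-125131882, plus strand: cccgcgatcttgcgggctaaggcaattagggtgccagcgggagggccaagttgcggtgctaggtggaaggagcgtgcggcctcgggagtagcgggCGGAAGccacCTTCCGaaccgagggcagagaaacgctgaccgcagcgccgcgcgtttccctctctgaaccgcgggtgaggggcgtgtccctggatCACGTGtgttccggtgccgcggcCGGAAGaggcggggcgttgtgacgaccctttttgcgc

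The printed Dkc1 stretch held neither motif. The Nhp2 stretch held 1 CGGAAG match, which began 22 bases before the start, and the Gar1 stretch held 2, which began 90 and 43 bases before it. Another Gar1 match lies past the printed stretch and began at base 2 counted from the start. In Nop10 a match in the reverse complement began 5 bases before the start, and its last base lies just past the printed stretch, so it is not in capitals. Nop2 had 3 CGGAAG matches (155, 145 and 37 bases before the start) and 1 CACGTG match (60 bases before it). GC content of the printed stretches was 52.0% for Dkc1, 54.8% for Nhp2, 61.6% for Gar1, 47.2% for Nop10 and 67.6% for Nop2.

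RefSeq windows from 250 bases before to 50 after a start were matched by symbol for 34 of the 40 genes. On either strand CACGTG was found for 6 of these 34 (17.6%), against 11.7% of tested genes with a window and 8.09% of all genes with one. Those 6 were Mybbp1a, Nop2, Pes1, Rrn3, Utp20 and Wdr43, of which Rrn3 and Pes1 were not called. Their median log2 fold change was 0.62, and it was 0.66 for the 28 without the motif. CGGAAG was found for 20 of 34 genes (58.8%), against 35.2% of tested genes and 18.8% of all genes with a window. The median log2 fold change was 0.56 with CGGAAG and 0.71 for the 14 genes without it. The full palindromic site of NRF1 was in 0 of the 34, against 2.33% of tested genes and 1.07% of all genes with a window. A match describes letters in a window, and whether a factor binds there was not measured.

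All 4 genes for multifunctional nucleolar proteins rose. Ncl encodes nucleolin, an abundant RNA-binding protein of the nucleolus. It was at 410 and 356 CPM with BMS-582949 and at 208 and 200 CPM with DMSO, a log2 fold change of 0.91 ± 0.07 (SE, edgeR adjusted p = 3.6e-07). Npm1 encodes nucleophosmin, a histone and ribosome chaperone that organises the outer nucleolus. It was at 425 and 429 CPM with BMS-582949 and at 250 and 222 CPM with DMSO, and rose by 0.85 ± 0.07. Reads of Npm1 may be shared with processed copies elsewhere in the genome, and the handling of such reads is not given in the sources used here. Among the others, the RNA helicase gene Ddx21 averaged 130 ± 12.6 CPM with BMS-582949 and 84.0 ± 3.54 CPM with DMSO (SD, n = 2 each) and rose by 0.63. Gnl3, which encodes the nucleolar GTPase nucleostemin, averaged 58.4 ± 4.87 CPM with BMS-582949 and 36.9 ± 3.24 CPM with DMSO and rose by 0.66.

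Among 9 genes of small-subunit assembly, 8 rose and Rrp12 was not called. Heatr1, Wdr43, Wdr75 and Utp15 belong to the subcomplex that joins the precursor first and, in yeast, also aids its transcription. All 4 rose, by 0.67 ± 0.10, 0.68 ± 0.09, 0.55 ± 0.10 and 0.55 ± 0.10 on the log2 scale (SE). Heatr1 was at 50.2 and 47.7 CPM with BMS-582949 and at 28.0 and 33.5 CPM with DMSO. Wdr43 was at 51.4 and 52.1 CPM with BMS-582949 and at 34.9 and 29.9 CPM with DMSO. Neither gene overlapped between the groups.

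Utp20 encodes a very large scaffold protein of the small-subunit precursor and had the biggest rise of these 9 genes, 1.08 ± 0.14 (SE, edgeR adjusted p = 2.3e-05). It was at 44.7 and 36.9 CPM with BMS-582949 and at 17.0 and 21.6 CPM with DMSO. Nop14 and Noc4l, whose yeast counterparts bind each other, rose by 0.59 and 0.69, and the RNA helicase gene Ddx10 rose by 0.74. Noc4l was at 52.7 and 51.1 CPM with BMS-582949 and at 30.1 and 34.1 CPM with DMSO. Rrp12, whose yeast counterpart is needed for export of the subunits, was at 34.7 and 28.9 CPM with BMS-582949 and at 24.4 and 30.6 CPM with DMSO. These ranges overlapped, and the difference of 0.21 ± 0.13 was not called (SE, edgeR adjusted p = 0.19). The value for Rrp12 depended on single libraries, at 0.32 without BMS-582949 replicate 2 and 0.39 without DMSO replicate 2, and was called in both of those fits.

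Among 12 genes of large-subunit assembly, 9 rose and 3 were not called, and the median log2 fold change was 0.54. Pes1, Bop1 and Wdr12 encode the PeBoW complex, which is needed for maturation of the large-subunit RNAs. Pes1 was at 176 and 157 CPM with BMS-582949 and at 147 and 158 CPM with DMSO, and its change of 0.12 ± 0.07 was not called (SE, edgeR adjusted p = 0.16). Bop1 was at 108 and 113 CPM with BMS-582949 and at 78.9 and 86.0 CPM with DMSO, and rose by 0.42 ± 0.07. Wdr12 was at 54.6 and 51.3 CPM with BMS-582949 and at 38.6 and 33.3 CPM with DMSO, and rose by 0.56 ± 0.09. Within libraries, the log2 ratio of Pes1 to Wdr12 was 1.69 and 1.61 with BMS-582949 and 1.93 and 2.25 with DMSO. That of Pes1 to Bop1 was 0.70 and 0.47 with BMS-582949 and 0.90 and 0.88 with DMSO. Pes1 was lower relative to both of its partners in both treated libraries, whereas the ratio of Bop1 to Wdr12 overlapped between the groups.

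Rrp1b, which encodes a nucleolar protein of the large-subunit precursor, had the biggest rise among the large-subunit genes. It was at 33.1 and 28.0 CPM with BMS-582949 and at 12.4 and 13.7 CPM with DMSO, a log2 fold change of 1.23 ± 0.13 (SE, edgeR adjusted p = 3.4e-06). Nop16 averaged 73.0 ± 1.13 CPM with BMS-582949 and 41.5 ± 1.5 CPM with DMSO, and the RNA helicase gene Ddx18 averaged 64.6 ± 0.525 CPM with BMS-582949 and 37.9 ± 1.43 CPM with DMSO (SD, n = 2 each). These rose by 0.81 and 0.77. Nop2, which encodes a methyltransferase that modifies a cytosine of the large-subunit RNA, rose by 0.57, and Ebna1bp2, whose yeast counterpart acts early in large-subunit assembly, by 0.56. Rrs1, whose yeast counterpart helps to place the 5S particle, had the smallest called rise of the 40 genes, 0.34 ± 0.07, at 64.1 and 67.0 CPM with BMS-582949 and 51.2 and 52.3 CPM with DMSO.

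Noc2l and Noc3l are counterparts of yeast proteins that work as a pair in large-subunit assembly. Noc2l was at 180 and 161 CPM with BMS-582949 and at 117 and 123 CPM with DMSO, and rose by 0.51 ± 0.07. Exons of Samd11, on the other strand, overlap 20.9% of the exon length of Noc2l. Whether counting used strand is not given in the sources used here. Samd11 itself had 1 and 2 counts with BMS-582949 and 0 and 0 counts with DMSO. Noc3l was at 18.0 and 16.5 CPM with BMS-582949 and at 13.6 and 14.8 CPM with DMSO, and was not called (0.28 ± 0.12, SE, edgeR adjusted p = 0.056). Nip7, which takes part in processing of the precursor, was at 60.4 and 62.9 CPM with BMS-582949 and at 58.8 and 53.7 CPM with DMSO. Its groups did not overlap, but the difference of 0.13 ± 0.08 was not called (SE, edgeR adjusted p = 0.15).

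**Figure D3:**
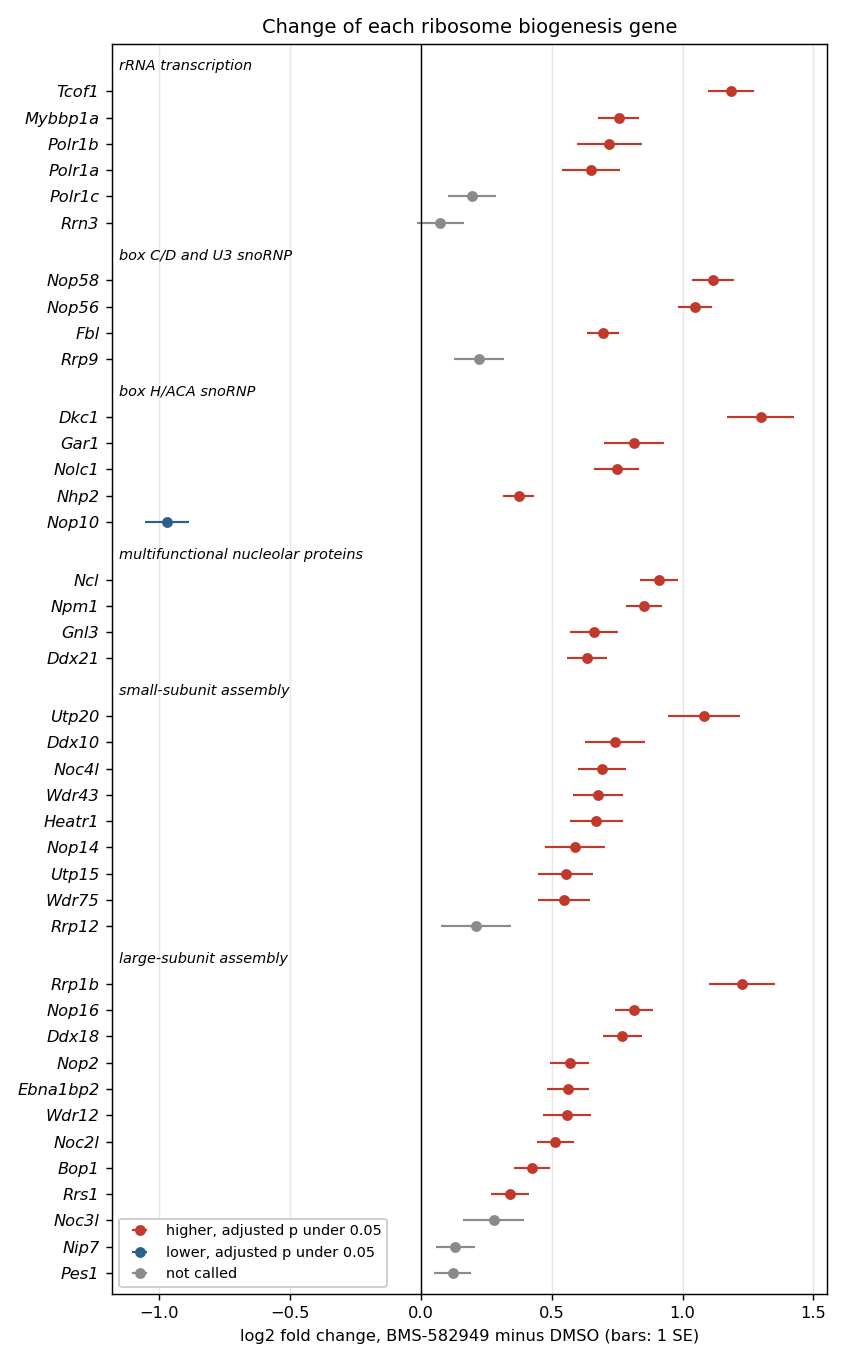
Log2 fold change (BMS-582949 minus DMSO) with its standard error for each of the 40 genes by role, in red where called higher, in blue where called lower and in grey where not called. The 32 red points lie between 0.34 (Rrs1) and 1.3 (Dkc1), and Nop10 stands alone at -0.97.

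Whether the 7 genes without a call were called depended on the scaling chosen. With DESeq2 size factors 0 of the 7 were called, as with TMM. When libraries were scaled by size only, the all-gene median shifted to 0.41, against 0.03 with TMM, and the test called 39 members higher, including these 7. In that setting 51.0% of all genes tested were called higher. With upper-quartile scaling, 5 of the 7 were called higher, and with the trend on GC content and length removed, 3 were. Nop10 was called lower under every scaling.

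Per length, the 40 genes spanned a wide range of levels. CPM was divided by the length in kilobases of the shortest principal transcript that GENCODE M21 annotates, so the annotated length enters each value. On that scale Npm1 had 261 CPM per kilobase with BMS-582949 and 145 with DMSO, Nhp2 had 202 with BMS-582949 and 156 with DMSO, and Fbl had 154 with BMS-582949 and 95.2 with DMSO. These were the top 3 of the 40 genes in both groups. Nop10 stood at rank 9 with BMS-582949 (44.9 CPM per kilobase) and at rank 4 with DMSO (88.1). The lowest value was that of Noc3l with BMS-582949 (4.33) and that of Utp20 with DMSO (2.18). Differences in order between neighbouring genes were not tested.

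Some members also carry snoRNAs, the guide RNAs of these particles, within their own genes. Annotated snoRNA genes lie on the same strand inside 6 of the 40 genes (15%), against 1.84% of 12596 tested protein-coding genes. They number 5 in Nop56, 4 in Nop58, 3 each in Ncl, Gnl3 and Wdr43, and 1 in Dkc1. All 6 host genes rose, as did 26 of the other 34 members. The host genes had log2 fold changes from 0.66 to 1.3 and a median of 0.98, against a median of 0.58 for the other 34. This difference was not tested. The snoRNAs themselves were not analysed here.

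The rest of the pathway was described from lists that exclude the 40 genes. Of 110 other genes, 76 rose, 7 fell and 27 were not called, against 30.5% of all genes tested higher and 29.7% lower. The median log2 fold change of the 110 was 0.41. No test was made of the difference between this list and the 40 genes. By group, 29 of 40 other small-subunit factors rose and 2 fell (median 0.41). Nol10 and Rcl1 had the largest rises (1.04 and 0.91), and Utp11 (-0.54) and Fcf1 (-0.30) fell. Of 38 other large-subunit factors 27 rose and 0 fell (median 0.42), led by Mdn1, a giant ATPase that remodels the precursor, at 1.19, and by Rrp15 at 1.18. Of 16 late assembly and export factors 11 rose and 2 fell (median 0.43). The nuclear export receptor gene Xpo1 was at 147 and 146 CPM with BMS-582949 and at 74.0 and 69.5 CPM with DMSO (1.03), and Pa2g4 rose by 0.97. Sbds, the gene mutated in human Shwachman-Diamond syndrome, whose product releases the anti-association factor Eif6 from the large subunit, was at 37.8 and 33.7 CPM with BMS-582949 and at 55.0 and 53.9 CPM with DMSO (-0.61), and Zfp622 fell by 0.43.

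Subunits and initiation factors of RNA polymerase I outside the 40 genes were mixed, with 9 of 16 higher, 3 lower and a median of 0.28. Of all genes tested, 30.5% were called higher and 29.7% lower. Taf1a and Polr1e rose by 1.19 and 0.88, both from low levels (2.06 ± 0.0459 and 9.02 ± 0.153 CPM with DMSO, SD, n = 2 each). Polr1d, which pairs with Polr1c in RNA polymerases I and III, was at 111 and 121 CPM with BMS-582949 and at 227 and 201 CPM with DMSO, a log2 fold change of -0.89 ± 0.07 (SE, edgeR adjusted p = 5.1e-07). Polr2f, a subunit of RNA polymerases I, II and III, was at 56.1 and 58.3 CPM with BMS-582949 and at 91.9 and 91.5 CPM with DMSO (-0.68). Both genes thus fell while the genes for the catalytic subunits Polr1a and Polr1b rose.

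Ribosomal protein genes encode the proteins that these factors assemble with the RNA. Of 79, 33 rose (41.8%), 5 fell and 41 were not called, where 30.5% of all genes tested were called higher and 29.7% lower. Their median was 0.11, and the largest rise was 0.50 (Rpl21). This split depends on single libraries and on scaling. Without DMSO replicate 2 there were 17 higher and 10 lower, without DMSO replicate 1 there were 38 and 2, without BMS-582949 replicate 1 there were 29 and 10, and with library size only 72 were higher and 1 lower. Many of these genes have near-identical copies, so their counts are uncertain where reads match several places. The summed level of the 79 genes was 57750 and 58280 CPM with BMS-582949 and 55587 and 51671 CPM with DMSO.

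**Figure D4:**
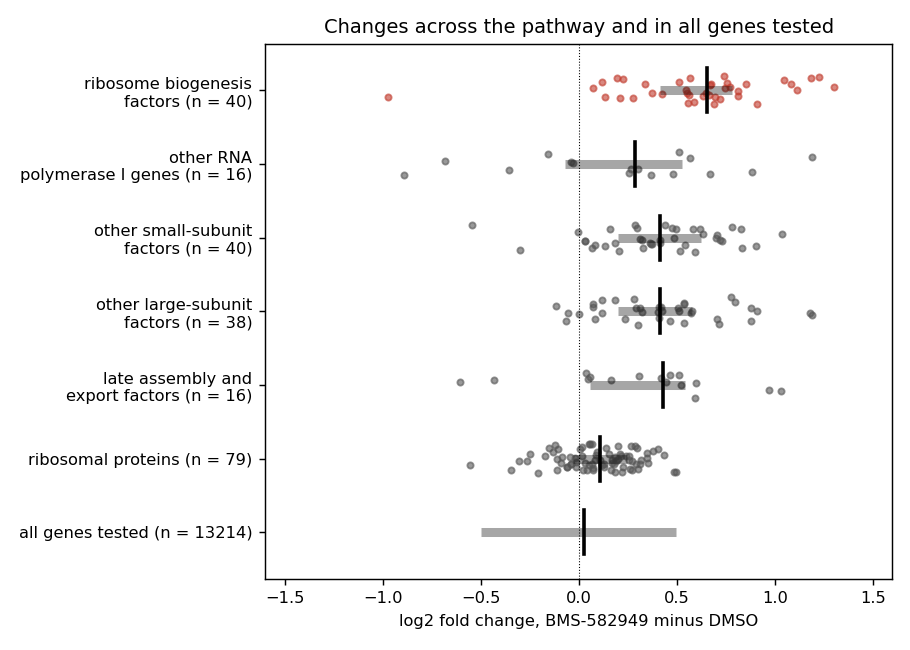
Log2 fold change (BMS-582949 minus DMSO) of single genes in each list (points, spread vertically for legibility), with the median (black line) and the interquartile range (grey bar), and without points for all genes tested. Medians were 0.66 for the 40 ribosome biogenesis factors, 0.28 to 0.43 for the other assembly lists, 0.11 for ribosomal proteins and 0.03 for all genes tested.

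Myc, a known activator of many of these genes, was at 136 and 154 CPM with BMS-582949 and at 43.4 and 55.7 CPM with DMSO. The groups were apart, with a log2 fold change of 1.55 ± 0.10 (SE, edgeR adjusted p = 6.2e-08). Mki67, a marker of dividing cells, was at 130 and 139 CPM with BMS-582949 and at 29.0 and 28.3 CPM with DMSO (2.23 ± 0.07). The part of either in the changes of the ribosome biogenesis genes was not tested.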

How the data were processed

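The authors deposited raw read counts per gene model for 2 BMS-582949 and 2 DMSO libraries, and columns were assigned to samples by name. Both treated samples are titled BMS-584929, whereas their treatment label and the count columns write BMS-582949, and the treatment label was followed. Per the submitters' processing notes, Trimmomatic 0.36, HISAT2 2.0.4 and DESeq2 1.30.1 were used with GRCm38. The counting tool, annotation and strand setting were not given in the sources used here. Symbols and coordinates for 22022 of 23390 models came from GENCODE M21 (GRCm38), and promoters from RefSeq (GRCm38.p6).

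The test was edgeR 4.0.16 in R 4.3.3 (filterByExpr at a minimum count of 10, TMM, glmQLFTest without covariates, 2 residual degrees of freedom, Benjamini-Hochberg over the 13214 genes tested, called under 0.05). The scatter of each gene was moderated over genes, with 9.93 prior degrees of freedom in this fit. SE is the absolute log2 fold change divided by the square root of F. The scripts were tested on simulated data. Alternatives were other scalings and filters, DESeq2 1.42.0, limma-voom (limma 3.58.1), a replicate block, removal of GC and length trends (loess, span 0.3) and leaving out each library. Both pairs of libraries were distinct, with a chi-square over genes of 13.9 (BMS-582949) and 9.83 (DMSO) for each degree of freedom. The members and lists were chosen with earlier results of these data known. All 40 members are named, with up to 2 called genes a direction from each pathway list, Myc and markers; 1 gene that this rule names is not reported here.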

Additional observations from a re-analysis of the deposited data

How the results depend on the processing

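Members called higher numbered 32 to 39 and members called lower 1 in each of 13 alternatives. Of 520 refitted member values, 499 kept their direction and side of the threshold, 19 gained a call and 2 changed sign, both of Rrn3 (log2 fold change of -0.040 with GC and length trends removed, and -0.038 to 0.20 when 1 library was left out, the lowest without DMSO replicate 1). Scaling by size only gave 6738 higher and 2240 lower calls over all genes, the members' median was 1.04, other assembly factors had 3 lower, and ribosomal proteins had 72 higher and 1 lower. Ribosomal proteins called lower numbered 3 with upper-quartile scaling, 8 with the DESeq2 test and 2 with GC and length trends removed. Scaling by size only leaves out the TMM factors, which were 1.153 and 1.13 for BMS-582949 and 0.88 and 0.8724 for DMSO. Why these factors differ between the groups was not tested, and neither was the cause of the other shifts. Leaving out 1 library gave member medians of 0.58 to 0.68, and ribosomal proteins had 17 to 38 higher and 2 to 10 lower. Same-numbered deviations correlated at -0.0776 across genes. With 2 libraries a group this rests on 1 pair of differences, so it cannot decide whether same-numbered libraries share an origin. A replicate block gave 32 members higher, 1 lower and a median of 0.65. With 2 libraries a group, members near the threshold cannot be separated from no change at this precision.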
